A study of Mus musculus with 16 samples.

Results

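The comparison described here is that of conventional CD4 T cells (Tconv) between knock-in (KI) and wild type (WT) mice. Its members were chosen by the sample descriptions, which give 4 arrays of Foxp3gfp Tconv (KI) and 4 of wild type Tconv (WT), or 8 of the 16 arrays of the series, with all probe sets. Both groups came from the spleens of NOD/LtJ mice aged 6 weeks. The animals labelled WT carried the transgene Tg(Foxp3-EGFP/cre)1aJbs, in which a fusion of EGFP and Cre is expressed under Foxp3 control, and the KI animals carried the allele Foxp3tm2Ayr, in which GFP is joined to Foxp3 at its own locus. Neither group was without a reporter, so an effect of the transgene and one of the knock-in cannot be told apart. The cells were sorted as CD3 and CD4 positive and GFP negative, received no treatment and were lysed right after the sort. The other 8 arrays hold regulatory T cells (Tregs), 4 of each genotype, and are used here only beside the Tconv values. The labels repeat the same gate for them, which leaves the sort of the Tregs unclear. The labels do not say which arrays came from separate mice, so the p-values measure only the spread between these samples, which may be technical.

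Tconv are the CD4 T cells that answer antigen by proliferating and by making helper cytokines. Tregs restrain such responses and are programmed by the forkhead factor Foxp3. Because Foxp3 is the defining gene of Tregs, a reporter driven from it is used to sort Tregs from Tconv, and GFP negative cells are the Foxp3 negative side of that gate. Fusion of GFP to the Foxp3 protein is known to alter its interactions with partner proteins, while a separate reporter leaves the protein of the endogenous gene as it is. In NOD mice, a strain that develops autoimmune diabetes, the state of Tconv is of interest because these cells hold the population that attacks the islets.

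The arrays gave log2 values, on which a difference of 1 is a 2-fold change. On the Tconv arrays, 23 control probe sets named as nonspecific had values up to 4.71 (median 2.63), so a value under about 5 lies near background, and a difference there understates the true fold. The cells carried the T cell genes of their label. Cd3e ranged from 8.70 to 9.02 in WT and from 8.80 to 9.04 in KI Tconv, and Cd4 from 7.69 to 8.18 and from 7.92 to 8.11. Il2ra, the IL-2 receptor alpha chain of Tregs, lay between 3.39 and 4.13 on all 8 Tconv arrays and between 9.13 and 9.90 in Tregs. Cd8a did not exceed 4.61 in Tconv, but Cd8b1 was above background, at 5.75 to 6.22 in WT and 6.24 to 6.60 in KI Tconv. Across genes, pairs of Tconv arrays correlated at 0.994 to 0.998. The number in each sample title runs from 7 to 9 for WT Tconv 1 to 3, is 16, 22 and 23 for KI Tconv 1 to 3, and is 25 and 27 for WT Tconv 4 and KI Tconv 4, so the only stretch that holds both genotypes is 24 to 27. The KI arrays were spread out: on the first principal component of the Tconv arrays (36.7% of the variance) KI Tconv 4 lay at -12.9, beside WT Tconv 4 (-10.5) and WT Tconv 1 (-10.3), KI Tconv 1 lay at 1.16, between WT Tconv 2 and WT Tconv 3, and KI Tconv 2 and 3 lay at 15.9 and 14.8.

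KI and WT Tconv differed in few genes. Of 8139 genes tested, 11 passed (limma, adjusted p under 0.05), which is 0.135% of the genes, and each of them was lower in KI. The 11 were 3830406C13Rik, Ccdc22, Pon2, Ikzf2, Nrp1, Klrg1, Foxp3, Eea1, Tiam1, S100a4 and Ccr6. No gene passed as higher in KI (0 of 8139). The smallest limma adjusted p of a positive difference was 0.19, and without adjustment 244 genes (3%) were higher and 236 (2.9%) lower at a p under 0.05. The WT level was between 1.66 and 12.5 times the KI level for the 11 genes, 3 of them at least 2-fold. On all 11 the highest KI array lay below the lowest WT array, which held for 80 of all genes (0.983%). The reverse, with every KI array above every WT array, held for 224 of the 8139 genes. Within the title numbers 24 to 27, where 1 array of each genotype can be compared with no test, all 11 were also lower in KI. The median standard error (SE) over all genes was 0.10, and for 7486 genes (92.0%) the 95% interval of the difference lay within 1.5-fold either way. The count depended on KI Tconv 4. Without it 65 genes passed, 14 higher (0.172%) and 51 lower (0.627%) in KI, and without the title numbers 24 to 27 in both cell types 105 passed, 38 higher (0.467%) and 67 lower (0.823%). The 11 genes were among those that passed both times. With the 3 runs of title numbers (4 to 9, 13 to 23, 24 to 27) as a block, of which only the last holds both genotypes, 5 genes passed. Of the 11 these kept 3830406C13Rik, Ikzf2 and Pon2.

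**Figure D1:**
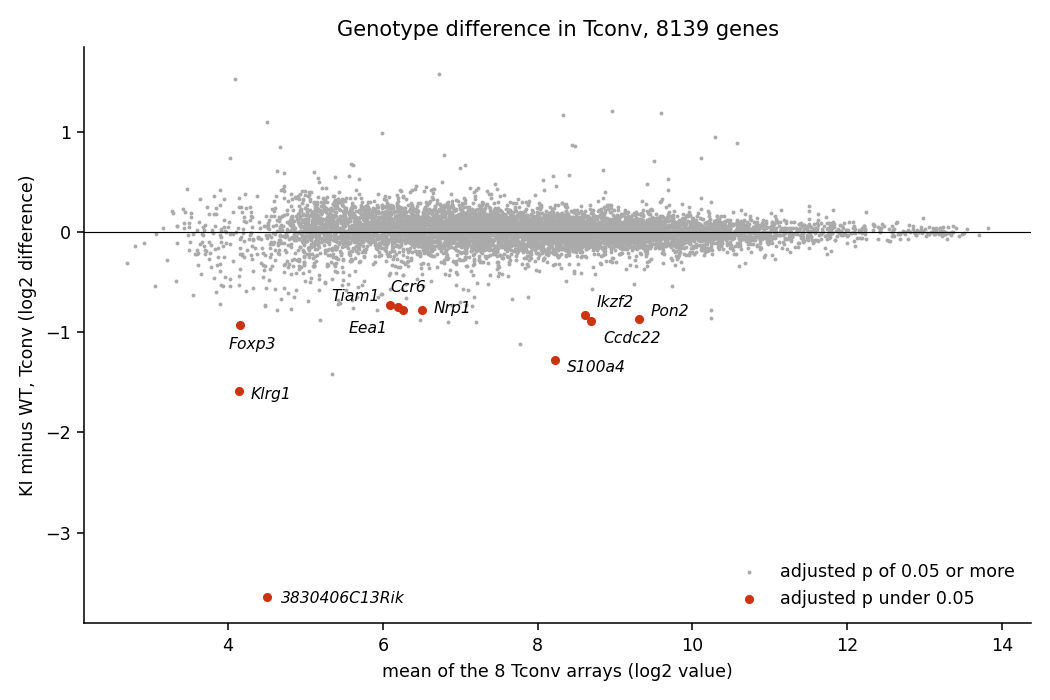
Difference between KI and WT Tconv (log2) against the mean of the 8 Tconv arrays (log2 value) for 8139 genes, 1 dot a gene. The 11 genes that passed (red) all lie below 0, with 3830406C13Rik farthest at -3.64 and the others between -1.59 and -0.73.

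A first set of 3 genes was lower in KI in both cell types: 3830406C13Rik, Ccdc22 and Pon2. They are 27.3% of the 11 genes that passed in Tconv and 1.30% of the 231 that passed in Tregs (2.84% of all genes). Among the genes tested the largest difference was in 3830406C13Rik, a mouse gene known by its RIKEN clone name. It measured 6.36, 6.13, 6.33 and 6.48 on WT Tconv 1 to 4 and 2.67, 2.80, 2.58 and 2.69 on KI Tconv 1 to 4. Every WT array was above background and every KI array was at the level of the control probe sets. The WT level was 12.5 times the KI level (-3.64 on the log2 scale with SE 0.13, n = 4 and 4, limma adjusted p = 3.37e-12), a fold that is understated because KI was at background. In Tregs the difference was -3.82 (SE 0.13, adjusted p = 1.51e-12), and within the title numbers 24 to 27 it was -3.79 in Tconv.

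Ccdc22 encodes a subunit of a complex that returns receptors from endosomes to the cell surface, and it is the next gene after Foxp3 on the X chromosome in the RefSeq order of GRCm38.p6. It measured 8.89, 9.24, 9.23 and 9.20 in WT and 7.95, 8.32, 8.36 and 8.36 in KI Tconv. The groups did not overlap, and replicate 1 was the lowest array in each. The difference was -0.89 (SE 0.11, adjusted p = 0.00062) and -0.84 within the title numbers 24 to 27, against -1.13 in Tregs (SE 0.11, adjusted p = 1.28e-05). Pon2, an intracellular paraoxonase with antioxidant activity, measured 9.44, 9.98, 9.57 and 10.00 in WT and 8.94, 8.72, 8.69 and 9.14 in KI Tconv. Its difference was -0.87 (SE 0.12, adjusted p = 0.00264) in Tconv, again -0.87 within the title numbers 24 to 27, and -0.88 (SE 0.12, adjusted p = 0.000639) in Tregs. A further probe set of Pon2 gave -0.89 (adjusted p = 0.0120 with each probe set tested), and the remaining pair lay near background. For none of the 3 genes did the genotype difference in Tregs differ from that in Tconv (interaction of -0.17, -0.24 and -0.01 with SE 0.18, 0.16 and 0.17, adjusted p = 0.919, 0.801 and 0.996).

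The neighbours of these genes were also examined. Pon3, which lies beside Pon2 in the paraoxonase cluster, measured 3.58 ± 0.11 in WT and 3.09 ± 0.08 in KI Tconv (SD, n = 4), near background, with a difference of -0.49 that did not pass (adjusted p = 0.48). In Tregs, where it was above background in WT at 6.40 ± 0.14, Pon3 was lower in KI by -1.53 (SE 0.15, adjusted p = 9.81e-06). Ppp1r3f, a glycogen-targeting subunit of protein phosphatase 1 on the other side of Foxp3, measured 7.17, 7.63, 7.55 and 7.52 in WT and 7.09, 6.78, 7.07 and 6.90 in KI Tconv. Its arrays did not overlap, but the difference of -0.51 (SE 0.12) did not pass in Tconv (adjusted p = 0.19), while that of -0.65 in Tregs did (adjusted p = 0.00581). Of the 21 tested genes of a list of Foxp3's neighbours 1 passed, Ccdc22, and the median of the list was 0.04 beside 0.01 over all genes. Gpkow, 7 genes from Foxp3, was at -0.30 (adjusted p = 0.227), at -0.36 without KI Tconv 4, where it passed (adjusted p = 0.0306), and at -0.04 within the title numbers 24 to 27. The other tested genes within 12 places of Foxp3, Clcn5 (-0.03), Plp2 (0.02), Wdr45 (0.05), Praf2 (0.11), Tfe3 (-0.03) and Gripap1 (0.02), lay near 0. Members of the list farther away varied more, such as Gata1 (0.54), Rbm3 (-0.65) and Pim2 (-0.33), and did not pass (adjusted p = 0.546, 0.867 and 0.802). The arrays did not overlap for 7 of the 21, 3 higher and 4 lower in KI, beside 304 of the 8139 genes.

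The sequences around the start sites of the 3 genes and of Foxp3 are shown because all 4 genes were lower in KI Tconv and because Foxp3 and Ccdc22 lie side by side on the X chromosome. Each runs from 250 bases before to 50 after the RefSeq start on the gene's own strand (GRCm38.p6), and capitals mark matches, on either strand, to TATAAA, to the cyclic AMP response element TGACGTCA or to the forkhead letters TGTTTAC. The motifs do not overlap each other in these windows. Of 32851 mouse promoters of this length 13.6% hold a match to the first, 1.79% to the second and 3.65% to the third.
3830406C13Rik (chr14:12283953-12284252, plus strand): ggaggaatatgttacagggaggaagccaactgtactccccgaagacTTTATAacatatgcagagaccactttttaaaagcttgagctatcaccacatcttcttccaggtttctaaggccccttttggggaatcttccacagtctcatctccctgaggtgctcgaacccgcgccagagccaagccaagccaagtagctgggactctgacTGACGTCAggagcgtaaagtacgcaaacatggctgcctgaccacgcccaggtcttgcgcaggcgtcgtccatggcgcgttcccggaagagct
Ccdc22 (chrX:7605371-7605670, minus strand): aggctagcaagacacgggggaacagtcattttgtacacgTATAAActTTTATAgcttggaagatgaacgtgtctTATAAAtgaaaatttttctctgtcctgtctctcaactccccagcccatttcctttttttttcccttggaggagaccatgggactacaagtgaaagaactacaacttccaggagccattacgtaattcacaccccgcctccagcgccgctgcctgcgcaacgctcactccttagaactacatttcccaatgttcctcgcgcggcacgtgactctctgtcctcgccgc
Pon2 (chr6:5298291-5298590, minus strand): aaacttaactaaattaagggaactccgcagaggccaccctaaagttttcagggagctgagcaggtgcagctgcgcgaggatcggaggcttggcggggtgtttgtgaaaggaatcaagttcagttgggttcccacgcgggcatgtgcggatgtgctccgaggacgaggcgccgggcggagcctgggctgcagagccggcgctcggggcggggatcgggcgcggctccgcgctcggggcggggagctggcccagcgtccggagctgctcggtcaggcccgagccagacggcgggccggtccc
Foxp3 (first of 2 starts, chrX:7579426-7579725, plus strand): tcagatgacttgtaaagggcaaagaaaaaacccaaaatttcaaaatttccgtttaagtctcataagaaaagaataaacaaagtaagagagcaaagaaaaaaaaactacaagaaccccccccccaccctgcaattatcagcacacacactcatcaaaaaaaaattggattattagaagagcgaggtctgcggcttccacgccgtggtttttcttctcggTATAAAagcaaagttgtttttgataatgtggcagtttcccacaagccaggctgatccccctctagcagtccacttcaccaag
The 3830406C13Rik window holds 1 match to the TATA letters and 1 to the cyclic AMP response element, and the Ccdc22 window holds 3 matches to the TATA letters. Pon2 holds none of the motifs, and the Foxp3 window holds 1 match to TATAAA just before its start. No window of the 4 holds the forkhead letters. A match is a description of the letters and not a bound site.

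The second set held the other 8 genes, Ikzf2, Nrp1, Klrg1, Foxp3, Eea1, Tiam1, S100a4 and Ccr6. None passed between KI and WT Tregs, which is how the set was defined. Each was higher in Tregs than in Tconv on every array of both genotypes. The share of all genes with this trait was not counted, and Foxp3 and Klrg1 were tested only through their high Treg values. Ikzf2 encodes Helios, an Ikaros family factor that marks most thymus-derived Tregs. It measured 9.06, 9.06, 8.91 and 9.06 in WT and 8.37, 8.02, 8.30 and 8.10 in KI Tconv. The WT arrays lay close together and well above all KI arrays. The difference was -0.83 (SE 0.07, adjusted p = 5.8e-06), it was -0.95 within the title numbers 24 to 27, and Tregs averaged 12.5 in WT and 12.4 in KI. The other probe set of Ikzf2 lay near background and averaged 3.14 in both WT and KI Tconv. Nrp1, a semaphorin and growth factor co-receptor also used to mark thymus-derived Tregs, measured 6.85, 6.65, 6.85 and 7.20 in WT and 6.13, 5.92, 5.96 and 6.44 in KI Tconv. The difference was -0.77 (SE 0.12, adjusted p = 0.00807) and -0.76 within the title numbers 24 to 27, and the array with the highest value in each group was replicate 4. Of its other probe sets 1 gave -0.72 (adjusted p = 0.0559 with each probe set tested) and 1 gave -0.56 (adjusted p = 0.324).

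Klrg1 encodes an inhibitory lectin-like receptor of terminally differentiated effector cells and of a mature subset of Tregs. It measured 4.97, 5.54, 4.51 and 4.73 in WT and 3.21, 3.15, 3.19 and 3.85 in KI Tconv. All KI arrays were at background, as were 3 of the 4 WT arrays, and KI Tconv 4 was the highest of KI. The WT level was 3.01 times the KI level (difference -1.59, SE 0.23, adjusted p = 0.00332), and within the title numbers 24 to 27 the difference was smaller, at -0.88. Foxp3 itself measured 4.24, 4.96, 4.51 and 4.80 in WT and 3.71, 3.57, 3.71 and 3.78 in KI Tconv. All 8 arrays were near background, the WT arrays were the higher ones, and the difference was -0.93 (SE 0.15, adjusted p = 0.0104, and -1.02 within the title numbers 24 to 27) against -0.09 in Tregs (SE 0.15, adjusted p = 0.798). Foxp3 and Klrg1 entered the test through their Treg values, so 9 of the 11 genes would be tested by the Tconv arrays alone. With only the 8 Tconv arrays fitted, 4 of the 11 passed: 3830406C13Rik, Ikzf2, Ccdc22 and Eea1. In that fit Klrg1, Pon2 and Nrp1 did not pass (limma adjusted p = 0.0555, 0.0897 and 0.176).

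Eea1, a tether of early endosomes, measured 6.67, 6.71, 6.55 and 6.66 in WT and 5.98, 5.70, 5.81 and 5.98 in KI Tconv, a difference of -0.78 (SE 0.09, adjusted p = 0.000203). Tiam1, an activator of the small GTPase Rac, measured 6.24, 6.62, 6.36 and 6.61 in WT and 5.89, 5.59, 5.51 and 5.92 in KI Tconv, a difference of -0.73 (SE 0.11, adjusted p = 0.00466). In both genes the 4 KI arrays lay below the 4 WT arrays, with gaps of 0.57 and 0.32, and within the title numbers 24 to 27 the differences were -0.68 and -0.69. The other probe sets of Tiam1 lay near background, with differences of 0.00 and 0.10. S100a4, a calcium-binding protein of motile and memory T cells, measured 9.00, 8.82, 8.60 and 9.05 in WT and 7.66, 6.90, 7.33 and 8.47 in KI Tconv. KI Tconv 4 lay close to the WT arrays and the other KI arrays well below them. Its difference of -1.28 (SE 0.23, adjusted p = 0.022) was -0.58 within the title numbers 24 to 27 and -1.57 without KI Tconv 4. Ccr6, the receptor for the chemokine Ccl20 on Th17 and memory cells, measured 6.80, 6.43, 6.29 and 6.75 in WT and 5.85, 5.48, 5.65 and 6.28 in KI Tconv. Its groups were separated by only 0.01, the difference was -0.75 (SE 0.14, adjusted p = 0.0442), and it was -0.46 within the title numbers 24 to 27. Its call was the least stable of the 11 and was lost in 12 of 22 alternative settings, and that of S100a4 in 10.

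**Figure D2:**
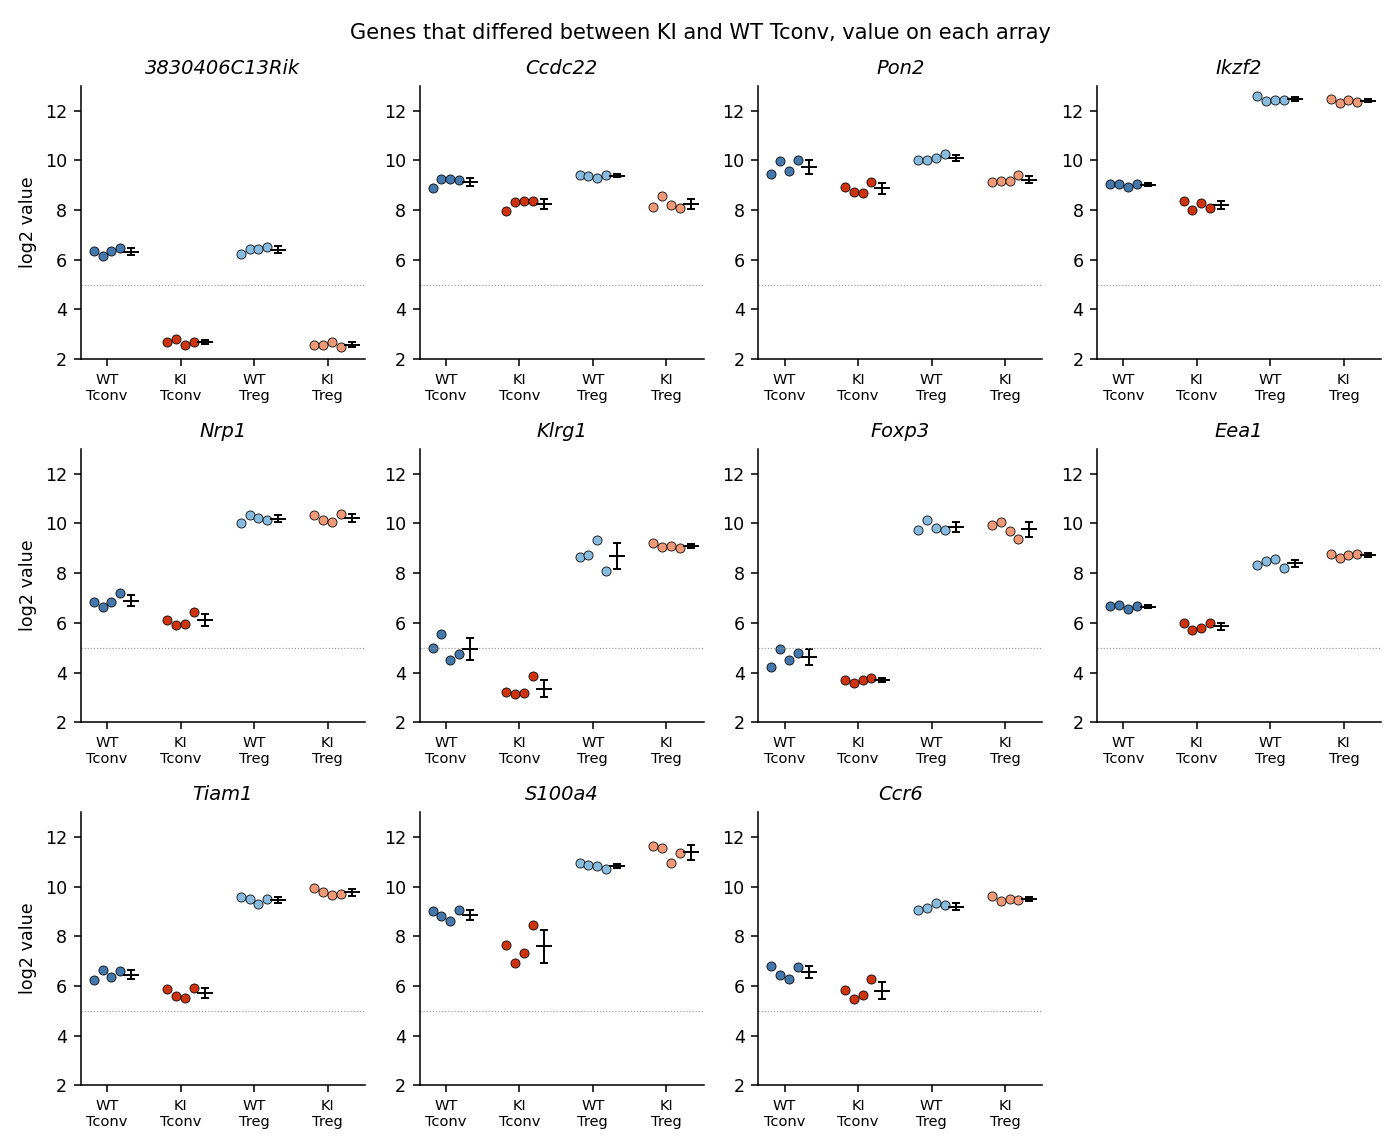
Value on each array (log2) of the 11 genes that passed, for 4 WT Tconv, 4 KI Tconv, 4 WT Treg and 4 KI Treg arrays in the order of their replicate numbers. Black bars give the mean and SD, and the dotted line is a value of 5, under which a gene lies near background. The KI Tconv dots lie below the WT Tconv dots in each panel, and in the first 3 panels the KI Treg dots lie below the WT Treg dots as well.

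The genotype difference itself was compared between the cell types. Over all genes 64 passed that interaction (0.786%), the genotype difference of Tregs after subtraction of that of Tconv, and of the 8 genes of the second set 7 did. These genes passed in Tconv and not in Tregs, and that choice largely fixes their interaction, so the values below are a description. The interaction was 0.75 (SE 0.10, adjusted p = 0.00139) for Ikzf2, 1.97 (SE 0.33, adjusted p = 0.00505) for Klrg1 and 1.10 (SE 0.13, adjusted p = 0.000205) for Eea1. That of Foxp3, 0.84 (SE 0.22), did not pass (adjusted p = 0.106). In Tregs the KI minus WT differences of Eea1 (0.32), Tiam1 (0.30), S100a4 (0.54) and Ccr6 (0.30) were positive, and none passed (adjusted p = 0.0612 to 0.304).

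**Figure D3:**
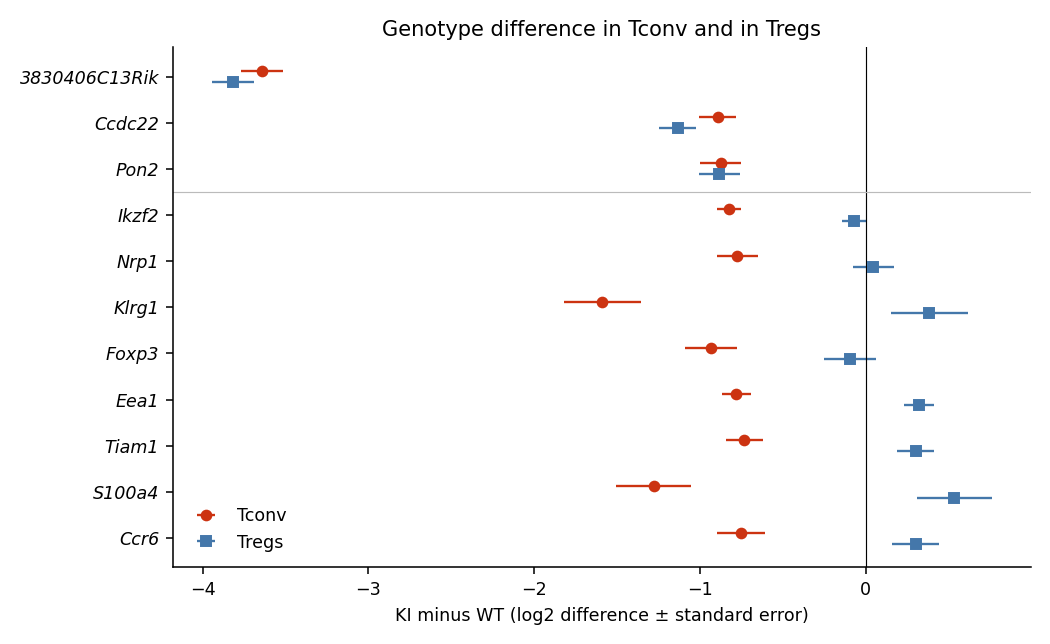
KI minus WT difference (log2) with its standard error in Tconv (red circles) and in Tregs (blue squares) for the 11 genes that passed in Tconv. The 3 genes above the line were lower in both cell types, from -0.87 to -3.82, while the 8 below it lay between -0.09 and 0.54 in Tregs.

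A list of genes that are higher in Tregs was then read as a whole in Tconv. The list was chosen with earlier results of these data known. It holds Ikzf2, Nrp1 and Klrg1, which were given beforehand as marking this comparison, so its counts, median and mean are a description. Of its 39 genes 34 were in the table, 10 of these below 5 on every Tconv array, and 32 were tested. Foxp3 and Klrg1 were tested through their Treg values. Of the 32, 5 passed and all were lower in KI (Foxp3, Ikzf2, Nrp1, Klrg1 and S100a4), 25 had a negative difference and the median was -0.18, beside 0.135% passed, 45% negative and a median of 0.01 over all genes. Without KI Tconv 4, 9 passed as lower and 2 as higher, beside 0.627% and 0.172% of all genes. The mean of the list was 6.47, 6.44, 6.30 and 6.41 on WT Tconv 1 to 4 and 6.15, 6.05, 6.09 and 6.19 on KI Tconv 1 to 4, and between 9.23 and 9.68 in Tregs. The groups did not overlap, and KI Tconv 4 was here with the other KI arrays. This mean includes the 5 genes that passed. Such a separation was not particular to the list. Means were also lower on every KI array for coinhibitory genes (8.50 to 8.57 in WT, 8.41 to 8.45 in KI), NK-type receptors, paraoxonases, and chemokine receptors and adhesion. For helper cytokines they were higher (6.51 to 6.59 in WT, 6.62 to 6.77 in KI). The median of the list higher in Tregs was -0.15 within the title numbers 24 to 27. In bulk samples fewer cells of a type and less RNA of a gene per cell cannot be told apart.

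Other genes of that list had negative differences that did not pass. Itgae, the integrin CD103 of tissue-retained T cells, lay at 4.26 ± 0.11 in WT and 3.53 ± 0.25 in KI Tconv, both near background (-0.72, adjusted p = 0.19). Nt5e, the ectoenzyme CD73, was at -0.52 (adjusted p = 0.394), Gzmb, the cytotoxic protease granzyme B, at -0.53 near background (adjusted p = 0.431), and the costimulatory receptor gene Icos at -0.37 (adjusted p = 0.144). Itgae (-0.80), Nt5e (-0.67) and Icos (-0.39) passed without KI Tconv 4, with adjusted p = 0.0444, 0.0124 and 0.0488. Ctla4, the inhibitory receptor that competes with Cd28 for its ligands, measured 6.45, 6.49, 6.49 and 6.81 in WT and 6.60, 6.52, 6.68 and 5.67 in KI Tconv. KI Tconv 4 was the lowest of all arrays and the other KI arrays lay within the WT range, and the difference of -0.19 (adjusted p = 0.87) was 0.04 without it. The genes of a list lower in Tregs (18 tested, 0 passed, median 0.01) and of the naive program (13 tested, 0 passed, median 0.03) lay near 0, with the T cell growth regulator Slfn2 (-0.31, adjusted p = 0.112, and 0.0403 without KI Tconv 4) and the effector repressor gene Bach2 (-0.17, adjusted p = 0.733) the lowest by p in the naive list.

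Most genes of activated and memory CD4 T cells had negative differences, few of which passed. Of 31 tested genes 2 passed, S100a4 and Ccr6, both lower, 26 had a negative difference and the median was -0.31, beside 0.135% passed, 45% negative and a median of 0.01 over all genes. Without KI Tconv 4, 5 passed as lower and 1 as higher. The list shares 3 tested genes with the list higher in Tregs. S100a6, a calcium-binding protein encoded in the same gene cluster as S100a4, measured 8.35, 8.19, 7.99 and 8.80 in WT and 7.84, 6.52, 6.56 and 7.95 in KI Tconv. Its arrays were apart by 0.03, with KI Tconv 1 and 4 just below the WT range and KI Tconv 2 and 3 far below it, and the difference of -1.12 did not pass (SE 0.26, adjusted p = 0.19), although it did without KI Tconv 4 (-1.36, adjusted p = 0.0112). Ccr2, a chemokine receptor of effector T cells and monocytes, was at -0.88 (adjusted p = 0.317), Anxa2, a membrane-binding annexin, at -0.67 (adjusted p = 0.19, and 0.0306 without KI Tconv 4), and Itgb1, the integrin beta 1 chain, at -0.57 (adjusted p = 0.15). A second probe set of Itgb1 passed where every probe set was tested (-0.63, adjusted p = 0.0120). Cd44, the classic marker of memory cells, was 9.37 ± 0.18 in WT and 9.21 ± 0.10 in KI Tconv (SD, n = 4, difference -0.15, 95% interval -0.37 to 0.07, adjusted p = 0.851), and Il2rb, the IL-2 receptor beta chain, was at -0.33 (adjusted p = 0.733). On the mean of the list the groups overlapped, at 8.07 to 8.37 in WT and 7.61 to 8.14 in KI, and KI Tconv 1 (8.11) and KI Tconv 4 (8.14) lay with WT while KI Tconv 2 (7.61) and KI Tconv 3 (7.67) lay below.

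Markers of other cells moved along with these differences on some arrays. Of 10 tested B cell genes none passed, all 10 had a negative difference with a median of -0.45, and the median within the title numbers 24 to 27 was 0.00. Their mean ranged from 5.69 to 7.65 in WT and from 5.28 to 6.82 in KI Tconv, with Ms4a1 between 4.66 and 8.39, and Cd79a at or under 4.86. Of 9 tested monocyte and macrophage genes 8 were negative (median -0.46, none passed), with means of 5.07 to 6.05 in WT and 4.66 to 5.68 in KI Tconv. Of 6 tested neutrophil genes 5 were negative (median -0.22, none passed), and S100a9 ranged from 5.92 to 9.87 in WT and from 4.46 to 8.78 in KI Tconv. KI Tconv 2 had the lowest mean of all 8 arrays for all 3 lists, and their part in the differences of memory genes was not tested. No gene passed among the tested markers of plasma cells (5), dendritic cells (2), CD8 T cells (7), NK cells (6), gamma delta T cells (3) and erythroid cells (2). None did among 10 genes of heat shock and dissociation stress (median 0.15, and -0.16 within the title numbers 24 to 27).

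The helper lineages showed few calls. Of 5 tested Th17 genes 1 passed, Ccr6, and Rora, a lineage factor of Th17 cells, was at -0.54 without overlap between the groups (adjusted p = 0.431). Il21, the cytokine of follicular helper and Th17 cells, measured 5.33, 5.02, 5.53 and 5.10 in WT and 6.02, 6.13, 5.94 and 5.59 in KI Tconv. All KI arrays lay above all WT arrays by 0.06, a separation that 224 of the 8139 genes showed. The difference of 0.68 (SE 0.20) did not pass (adjusted p = 0.461). No gene passed among 10 tested Th1 genes (median -0.20), 4 Th2 genes (0.04), 11 follicular helper genes (-0.16), 13 coinhibitory receptor and anergy genes (-0.08), 10 helper cytokines (0.13) or 8 candidate genes of the NOD diabetes loci (0.02). Of 20 chemokine receptor and adhesion genes 1 passed, Ccr6, with a median of -0.15. Of 4 NK-type receptor genes 1 passed, Klrg1, and of 30 Foxp3 partners and chromatin regulators 1, Ikzf2, with a list median of 0.05.

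Genes of signalling, metabolism and growth lay near 0. No gene passed among 19 tested genes of proximal T cell receptor signalling (median 0.03), where Cd3g was at 11.70 ± 0.06 in WT and 11.79 ± 0.02 in KI Tconv. The median was -0.06 for 24 cell cycle genes, 0.07 for 20 type I interferon genes, -0.07 for 18 genes of the IL-2, IL-7 and STAT5 pathway, -0.08 for 18 apoptosis regulators, 0.04 for 19 glycolysis genes and 0.03 for 31 oxidative phosphorylation genes, with 0 calls in each list. Among the CD8 T cell markers Gzmb had the lowest p, with the negative difference given above, and Cd8b1 followed at 6.01 ± 0.20 in WT and 6.42 ± 0.15 in KI Tconv (0.42, adjusted p = 0.437).

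**Figure D4:**
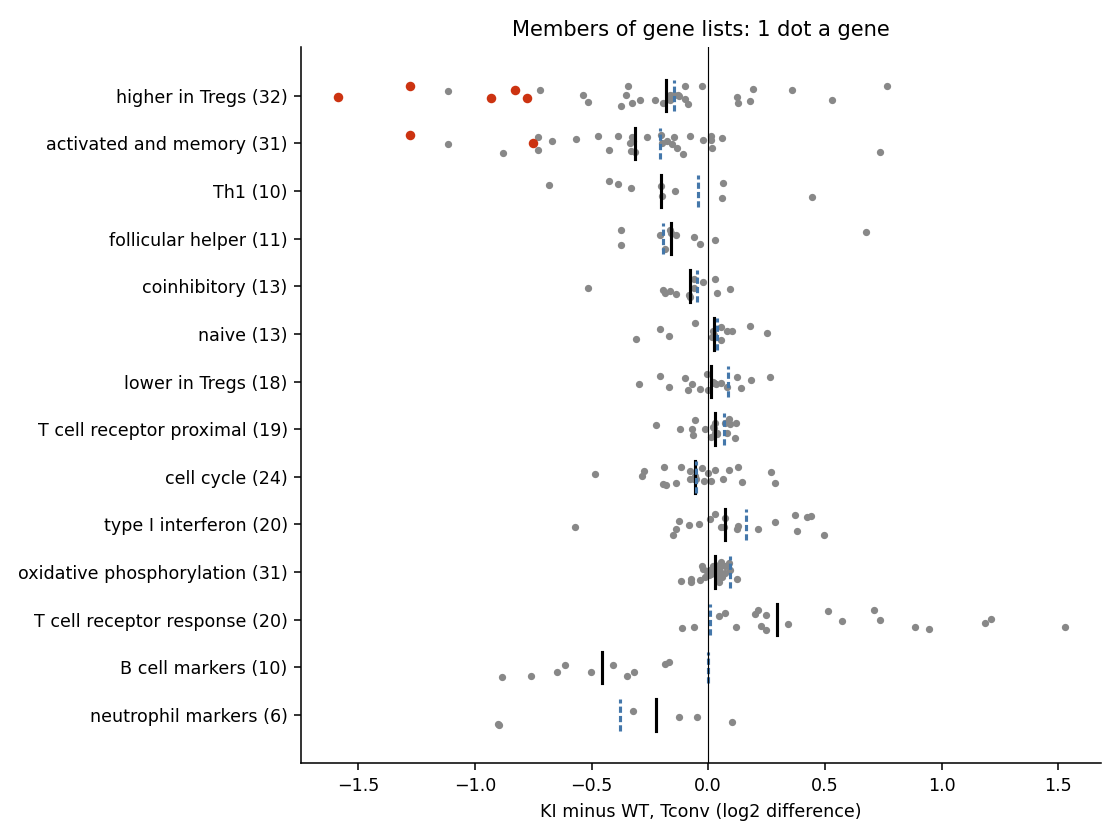
KI minus WT difference in Tconv (log2) for the tested members of 14 gene lists, 1 dot a gene, with the number tested in parentheses. Red dots passed, black bars give the median over the 8 arrays and dashed blue bars the median within the title numbers 24 to 27. The list higher in Tregs and the memory list lie to the left, and the median of the T cell receptor response list is 0.29 on all arrays and 0.01 within the title numbers 24 to 27.

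Genes of the immediate response to T cell receptor signals were on average high on 3 of the 4 KI Tconv arrays, but not every gene was. None of the 20 tested genes passed, 18 had a positive difference and the median was 0.29. Nr4a3 (-0.11) and Egr2 (-0.06) were negative, and Nfkbia (0.05) and Nfkbid (0.07) lay near 0. The mean of the 20 was 8.57, 8.59, 8.57 and 8.63 on WT Tconv 1 to 4 and 9.20, 9.29, 9.33 and 8.51 on KI Tconv 1 to 4. KI Tconv 1 to 3 lay above all WT arrays and KI Tconv 4 below them. Tnfaip3, which encodes the NF-kappaB inhibitor A20, measured 8.95, 9.02, 8.77 and 9.26 in WT and 10.66, 10.64, 10.48 and 8.98 in KI Tconv. Its difference of 1.19 (SE 0.33) did not pass (adjusted p = 0.394), and it was -0.28 within the title numbers 24 to 27. Cd69, an early activation antigen, measured 9.70, 9.53, 9.62 and 10.11 in WT and 10.35, 10.79, 10.73 and 10.04 in KI Tconv, a difference of 0.74 (adjusted p = 0.19) and of -0.07 within those numbers. The zinc finger gene Klf6 was at 0.71 (adjusted p = 0.497) and at -0.38 within them, and Egr1, a zinc finger factor induced by MAP kinase signals, at 0.34 (adjusted p = 0.639) and 0.25.

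Further genes of this kind were chosen after their values were seen. Jun, a subunit of the transcription factor AP-1, measured 8.13, 7.96, 8.24 and 9.08 in WT and 10.47, 9.84, 9.86 and 8.10 in KI Tconv, and Dusp1, a phosphatase of MAP kinases, measured 10.32, 10.14, 9.90 and 10.15 in WT and 11.38, 11.56, 11.60 and 9.53 in KI Tconv. Sik1, a salt-inducible kinase, measured 5.46, 5.35, 5.57 and 5.61 in WT and 6.83, 6.85, 6.78 and 5.48 in KI Tconv. The array KI Tconv 4 was the lowest of KI in all 3 and lay within the WT range for Jun and Sik1 and below it for Dusp1. The Treg array of the same stretch, KI Treg 4, was also the lowest of its group for Jun (7.88), Dusp1 (10.56) and Sik1 (6.95). Without KI Tconv 4, 5 of the 20 response genes passed as higher in KI, beside 0.172% of all genes: Tnfaip3 (1.59), Dusp1 (1.38), Klf6 (1.00), Cd69 (0.89) and Nr4a1, an orphan nuclear receptor gene. Without the title numbers 24 to 27, 9 of them did, beside 0.467% of all genes. Within 24 to 27 the median of the list was 0.01. Genotype and the position in the title numbers coincide for KI Tconv 1 to 3 and WT Tconv 1 to 3, and their parts in these values cannot be told apart.

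**Figure D5:**
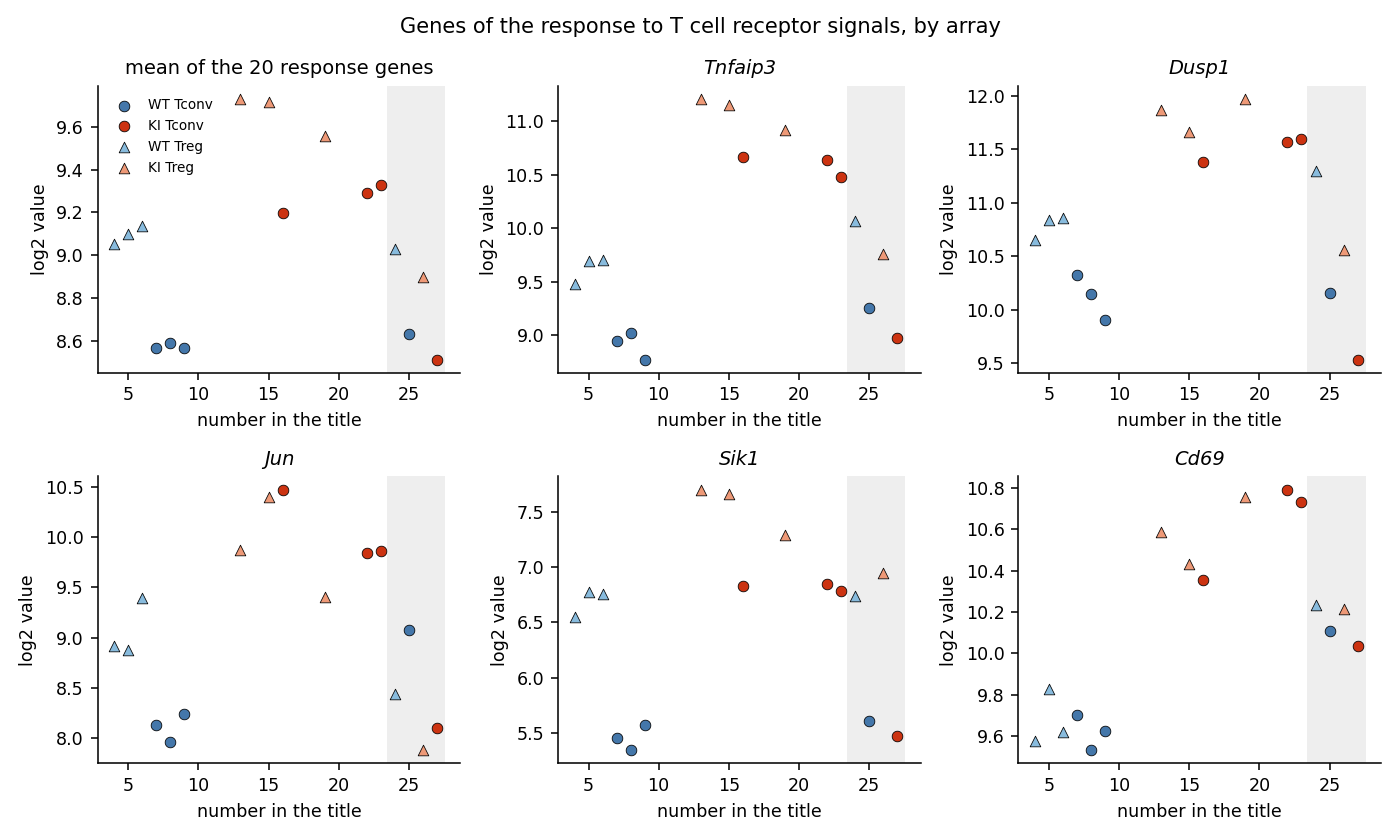
Value on each array (log2) against the number in the sample title, for the mean of the 20 tested T cell receptor response genes and for Tnfaip3, Dusp1, Jun, Sik1 and Cd69. Circles are Tconv, triangles are Tregs, and grey marks 24 to 27, the only stretch with both genotypes. The KI Tconv arrays numbered 16, 22 and 23 lie above the WT Tconv arrays, while KI Tconv 4, numbered 27, lies below WT Tconv 4, numbered 25.

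Some genes were higher in KI Tregs while their values in KI Tconv were negative. Among the named genes Icos (0.57 in Tregs), Itgae (0.76), Anxa2 (0.82), Gzmb (0.76), Prdm1 (0.89), the gene of the repressor Blimp-1, and Esm1 (0.93), a secreted proteoglycan gene, passed as higher in KI Tregs, where 162 of 8139 genes did (1.99%). In Tconv the same genes were at -0.37, -0.72, -0.67, -0.53, -0.31 and -0.78, and none of them passed. These genes are listed for their opposite signs, which largely fixes their interaction. It passed for each, at 0.95 for Icos (adjusted p = 0.000463), 1.49 for Itgae (adjusted p = 0.00355), 1.49 for Anxa2 (adjusted p = 0.00245), 1.29 for Gzmb (adjusted p = 0.00507), 1.21 for Prdm1 (adjusted p = 0.00245) and 1.71 for Esm1 (adjusted p = 0.00505). It also passed for S100a6 (2.03, adjusted p = 0.0103) and Ccr2 (1.74, adjusted p = 0.0121), whose differences passed in neither cell type. Ctla4 passed as higher in KI Tregs as well (0.64, adjusted p = 0.0358) and was at -0.19 in Tconv. Its interaction of 0.83 did not pass (adjusted p = 0.129).

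Probe sets with no gene or several genes in the annotation were tested as well, a choice made after seeing the data. Of 18621 probe sets tested 18 passed and all were lower in KI (0.0967%), of which 12 had 1 gene, 3 several genes and 3 none. The probe set 1436388_PM_a_at, with no listed gene, had the largest difference. It measured 8.30, 8.35, 8.51 and 8.35 in WT and 3.42, 2.90, 3.38 and 3.77 in KI Tconv, well above background on all WT arrays and at background on all KI arrays. The difference was -5.01 (SE 0.15, adjusted p = 1.48e-12) in Tconv and -5.19 in Tregs. The other 2 with no listed gene were 1425145_PM_at (-2.14, adjusted p = 0.000154), which was at -0.14 in Tregs, and 1447541_PM_s_at (-0.90, adjusted p = 0.0104), which was at 0.67 in Tregs.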

How the data were processed

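Splenic CD4 T cells were profiled on 16 Affymetrix arrays, 8 of them Tconv. The deposited log2 values per probe set were made by the authors with RMA in Partek 6.5, per the submitters' processing notes; RMA corrects background, equalises array distributions and summarises probes, and its options are not given in the sources used here. Because distributions are equalised, a shift of all genes would not be seen. Of 45141 probe sets 104 were controls, 28898 had 1 gene, 551 several and 15588 none in the platform annotation, with symbols updated through RefSeq. Each of 17097 genes was represented by its probe set with the highest mean over 16 arrays, and genes above 5 on at least 4 arrays were kept (8139). Groups follow the labels, and replicates were numbered within each group in the order of the title numbers. Group means were estimated over the 16 arrays in R 4.3.3 with limma 3.58.1 (empirical Bayes moderation with a trend on mean expression, two-sided, Benjamini-Hochberg over all genes tested, threshold 0.05), and the script was tested on simulated data. Intervals are 95%. A gene list is given by its counts and median, with no test. Named genes are the passing genes, up to 4 members of each list by lowest p and some with a large interaction, apart from those said to be chosen after their values were seen. Of the 10 largest interactions Ccnb2 (2.25), Atp6v0d2 (2.16), Chdh, Rapgef5, Emp1 and Egln3 are not described, and Esm1 is not among the 10. Casp1 and Marveld1 were also chosen after their values were seen. Further genes are named as cell markers, as neighbours of Foxp3 or Pon2, or for a call in an alternative setting. The comparison, its genes, the gene lists and the tests were chosen with earlier results of these data known. Alternatives covered the arrays fitted, runs of title numbers, filters, probe sets, variance models, scaling and leaving out each Tconv array. The number of arrays limits the precision.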

Additional observations from a re-analysis of the deposited data

Results flagged for a closer look

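Among the named genes 9 of 86 groups of 4 Tconv arrays had 1 array far from the other 3. Chance flags about 1 in 20 groups, but the named genes were picked by their values (Dusp1 and Sik1 after these were seen), so the count is not read against that share. In 5 of the 9 the array was KI Tconv 4. It was low for Ctla4 (5.67, the others 6.52 to 6.68), Tnfaip3 (8.98, the others 10.48 to 10.66), Dusp1 (9.53, the others 11.38 to 11.60) and Sik1 (5.48, the others 6.78 to 6.85), and high for Klrg1 (3.85, the others 3.15 to 3.21). The other arrays that stood apart were WT Tconv 1 (8.89) and KI Tconv 1 (7.95) for Ccdc22, WT Tconv 3 for Ikzf2 (8.91) and WT Tconv 4 for Ctla4 (6.81).

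For 16 named genes, and for Pon3 with the opposite sign, the genotype difference passed a test of the difference between Tregs and Tconv (limma, the Treg difference less the Tconv difference). Many were named for passing in 1 cell type or for this test itself, so their number is no result. In the set that was lower in KI Tconv it was 0.75 for Ikzf2, 0.82 for Nrp1 (adjusted p = 0.0331), 1.97 for Klrg1, 1.10 for Eea1, 1.03 for Tiam1 (adjusted p = 0.00258), 1.81 for S100a4 (adjusted p = 0.00811) and 1.05 for Ccr6 (adjusted p = 0.0155). Of the genes that did not pass in Tconv it was 0.95 for Icos, 0.80 for Itgb1 (adjusted p = 0.0401), 1.49 for Itgae, 1.49 for Anxa2, 2.03 for S100a6, 1.74 for Ccr2, 1.29 for Gzmb, 1.21 for Prdm1 and 1.71 for Esm1. It was -1.04 for Pon3 (adjusted p = 0.0200), whose Tconv values lay near background.

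The probe set 1436388_PM_a_at, which has no listed gene and lies outside the test of genes, was at -5.01 in KI minus WT Tconv.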

How the results depend on the processing

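No paired analysis was possible because the labels give the groups no shared replicate numbers. The 95% interval of a gene's difference, which is not adjusted for the number of genes, reached a median of 0.21 (log2) to either side. Smaller differences were mostly not detectable. Larger ones could also fail to pass after adjustment. The smallest difference that passed was -0.73 (Tiam1), while Icos at -0.37 did not pass. Tnfaip3 at 1.19, S100a6 at -1.12 and Ccr2 at -0.88 did not pass either, so a difference beyond 0.73 was not always called. Genes near background have understated differences. The 11 genes that passed kept their direction in all settings, and the calls lost are counted per gene: Ccr6 lost its call in 12 of 22 settings, S100a4 in 10, Foxp3 in 5, Nrp1 and Tiam1 in 3 each, Klrg1 in 2, Ccdc22, Eea1, Ikzf2 and Pon2 in 1 each and 3830406C13Rik in 0. The count of 11 in Tconv became 4 with only the 8 Tconv arrays, 5 with 3 runs as a block (Marveld1 passed as higher and Pim2 as lower beside the 3 of the 11), 105 without the title numbers 24 to 27, and 18 with every probe set, an alternative chosen after seeing the data. Leaving out 1 Tconv array at a time gave 7 (without KI Tconv 2) to 65 (without KI Tconv 4). The other settings gave 8 to 13; with 2 runs as a block, Casp1 and Slfn2 joined the 11. The count of 231 in Tregs became 29 with 3 runs as a block and 422 without the title numbers 24 to 27. The cause of these shifts was not tested.

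Some genes that did not pass changed sign. With 3 runs as a block the differences were -0.018 for Cd69, -0.21 for Tnfaip3, -0.21 for Klf6, -0.40 for Jun and -0.54 for Dusp1. Within the title numbers 24 to 27 they were -0.071 for Cd69, -0.28 for Tnfaip3, -0.38 for Klf6, -0.98 for Jun, -0.62 for Dusp1 and -0.14 for Sik1. Ctla4 was at 0.12 without those numbers, and from -0.30 (without KI Tconv 3) to 0.040 (without KI Tconv 4) with 1 array left out.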
